A study of Mus musculus with 25 samples.

Results

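The genes for acetylcholine receptors were examined in the CA1 region of the hippocampus of inbred Balb c/J mice, all of them female. The set comprised 8 genes, the muscarinic receptors Chrm1, Chrm2, Chrm3 and Chrm4 and the nicotinic subunits Chrna4, Chrna5, Chrna7 and Chrnb2. Every probe set that the platform annotation of the Affymetrix mouse array names for a single one of these genes was taken. This gave 14 probe sets of 7 genes, 4 muscarinic and 10 nicotinic, of the 45101 on the array, which measured 18193 genes by name. No probe set of this kind was found for Chrm2, so its level was not analysed here. A probe set is a group of short probes read together as 1 signal, and a gene can have several of them.

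CA1 of 11 handled mice was set against CA1 of 14 non-handled mice, and each mouse had its own array. Handled pups were taken from their mother for 15 minutes each morning from postnatal day 1 to postnatal day 14, and non-handled pups were left with her. In both groups behavioral testing, in an open field and then a light-dark box, began at about 8 weeks of age, and CA1 was dissected 2 weeks after the testing. RNA was extracted with Qiagen RNA/DNA columns from 7 handled and 10 non-handled mice and with Trizol from 4 handled and 4 non-handled mice, and all RNA was amplified over a pair of rounds before labelling. The methods of the study state fewer litters than mice, so some mice were littermates. The litter of each mouse is not given in the sources used here, and p-values treat the mice as independent.

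Acetylcholine acts on a pair of unrelated receptor families. Muscarinic receptors are G protein-coupled: M1 and M3, encoded by Chrm1 and Chrm3, act through Gq and phospholipase C, and M2 and M4, encoded by Chrm2 and Chrm4, act through Gi and Go. Nicotinic receptors are ion channels of several subunits: alpha4 and beta2 (Chrna4, Chrnb2) form the main high-affinity receptor of the brain, alpha5 (Chrna5) joins such receptors as an accessory subunit, and alpha7 (Chrna7) can form a channel on its own. In the hippocampus acetylcholine is released mainly by axons from the medial septum and diagonal band. M1 is the main muscarinic receptor of pyramidal cells, and alpha7 is well known from hippocampal interneurons.

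The sequences before the gene starts are shown for the nicotinic genes whose probe sets carry the comparisons below, Chrna4, Chrnb2 and Chrna7, to set them beside the signals. They are the 250 bases before the start in the RefSeq table for GRCm38.p6, written 5′ to 3′ on the gene's strand. Capitals mark the GC box, GGGCGG or its reverse complement CCGCCC, the letters that the factor Sp1 is known for. The Chrna4 window is chr2:181039178-181039427 on the minus strand and lies inside the annotated gene, chr2:181022311-181043579. The Chrnb2 window is chr3:89764633-89764882 on the minus strand, just before the gene at chr3:89753448-89764632. The Chrna7 window is chr7:63212527-63212776 on the minus strand, just before the gene at chr7:63098692-63212526.
Chrna4: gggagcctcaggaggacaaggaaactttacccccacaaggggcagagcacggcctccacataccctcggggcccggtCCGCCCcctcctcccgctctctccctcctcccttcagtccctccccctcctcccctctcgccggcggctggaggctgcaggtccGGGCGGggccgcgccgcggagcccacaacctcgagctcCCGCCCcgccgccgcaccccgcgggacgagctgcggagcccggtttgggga
Chrnb2: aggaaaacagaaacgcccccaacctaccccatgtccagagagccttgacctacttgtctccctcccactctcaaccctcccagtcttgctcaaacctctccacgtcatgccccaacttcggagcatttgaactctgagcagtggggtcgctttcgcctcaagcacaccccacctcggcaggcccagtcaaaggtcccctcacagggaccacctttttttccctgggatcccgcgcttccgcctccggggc
Chrna7: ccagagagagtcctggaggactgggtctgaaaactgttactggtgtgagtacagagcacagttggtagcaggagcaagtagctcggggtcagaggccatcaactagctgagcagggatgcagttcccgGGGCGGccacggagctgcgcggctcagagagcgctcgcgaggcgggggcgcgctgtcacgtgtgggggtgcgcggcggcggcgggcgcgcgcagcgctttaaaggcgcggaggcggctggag
The Chrna4 window held 3 GC boxes, the Chrna7 window held 1 and the Chrnb2 window held 0. Of the 32851 windows of the same length in the table, 32.7% held at least 1. G and C made up 74.4% of the Chrna4 window, 67.2% of the Chrna7 window and 59.6% of the Chrnb2 window, with a median of 52.4% over all windows. Of the other members, Chrm4 had 3 sites, Chrm2 had 1 and Chrm3 had 0, and Chrna5 had 0 and 4 in its pair of windows. A match is a description of letters and was set against no binding data. No window was available for Chrm1, which lies at chr19:8664005-8683606.

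Handled mice had a lower signal than non-handled mice for 3 of the 14 receptor probe sets and a higher signal for 0 of 14, at an adjusted p under 0.05. Those that fell were 1 of the 2 probe sets of Chrm1, 1 of the 3 of Chrna4 and 1 of the 3 of Chrnb2. The test was limma on log2 signal with extraction method as a term, with p-values adjusted over all 45037 probe sets that are not controls. Over all of these, 11.5% were called, 3.58% higher and 7.93% lower in handled mice. The count of 3 of 14 was not tested against that background. An unadjusted limma p under 0.05 was found for 6 of the 14, and for 12561 of the 45037 probe sets. The calls were 1 of 4 muscarinic and 2 of 10 nicotinic probe sets. Over the 14, 7 differences were positive and 7 were negative, and their median was -0.01 on the log2 scale. The median over all probe sets was -0.15 with the deposited scaling and 0.02 after quantile normalization, and so the called differences and those of the brightest Chrna7 probe set are also given relative to it. Among the 22518 probe sets in the brighter 50% the median was -0.02 with the deposited scaling. The shift was thus not the same for dim and bright probe sets, and values relative to 1 median do not remove it evenly. In whole tissue, fewer cells of a type and less RNA per cell cannot be told apart.

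**Figure D1:**
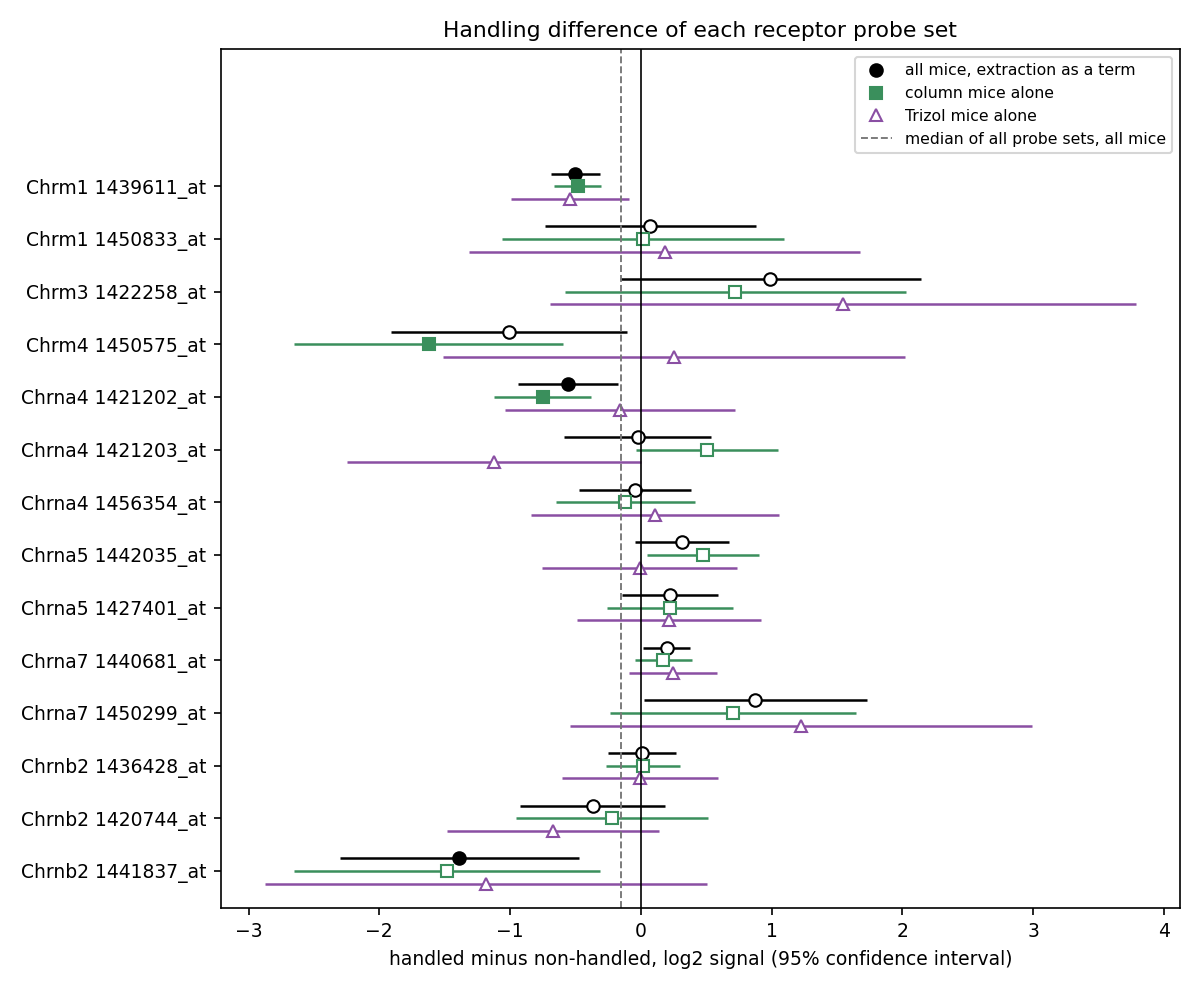
Handled minus non-handled log2 signal for the 14 receptor probe sets, with 95% confidence intervals, in all mice (circles), in the column mice alone (squares) and in the Trizol mice alone (triangles). Filled symbols have an adjusted p under 0.05 over all probe sets, and the dashed line is the median of all probe sets in all mice (-0.15). For Chrm1 1439611_at the 3 estimates lie between -0.54 and -0.48.

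Chrm1, the gene of the M1 receptor, had the clearest difference. The probe set 1439611_at ranged from 973 to 1281 with a median of 1063 in the handled column mice and from 1316 to 1851 with a median of 1529.5 in the non-handled column mice, in units of MAS 5.0 signal. All 7 handled column mice were below all 10 non-handled column mice. The share of all probe sets that separated in this way was not counted, and 12.01% were called in the column mice alone. With Trizol the handled mice H113, H126, H130 and H131 had 621, 549, 391 and 696, and the non-handled mice NH138, NH144, NH146 and NH147 had 975, 722, 606 and 973. There the groups overlapped through NH146, which was below H113 and H131. The log2 difference was -0.50 (standard error 0.091, 95% confidence interval -0.69 to -0.32), a signal 1.42-fold lower in handled mice, with an adjusted p of 0.000539. Relative to the median of all probe sets it was -0.35, and -0.55 after quantile normalization. The difference was -0.48 in the column mice alone (adjusted p = 0.000889) and -0.54 in the Trizol mice alone, where the unadjusted limma p was 0.0211, the adjusted p was 0.775 and 0 of the 45037 probe sets were called. The handling differences under the extraction methods differed by 0.06 (standard error 0.20, adjusted p = 0.972 for the interaction). Leaving out each of the 25 mice in turn kept the probe set called in 25 of 25 fits, with differences from -0.54 to -0.45.

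The other Chrm1 probe set, 1450833_at, was dim and gave no such difference. It ranged from 6.04 to 62.9 over the 25 mice, with a median rank at percentile 16.7 of an array against 85.8 for 1439611_at. Its log2 difference was 0.07 (95% confidence interval -0.74 to 0.88, adjusted p = 0.929), an interval that includes the value of the brighter probe set. After removal of the handling and extraction effects, the correlation between these probe sets across the 25 mice was -0.06.

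The Gi-coupled receptor M4 was measured by 1 dim probe set of Chrm4, 1450575_at. In the column mice it ranged from 3.55 to 14.3 with a median of 5.72 in handled mice and from 7.92 to 48.7 with a median of 20.9 in non-handled mice. Of the 7 handled column mice, 6 were below all 10 non-handled ones, and H118 was the exception. The share of all probe sets that separated to this extent was not counted. With Trizol the handled mice H113, H126, H130 and H131 had 15.2, 26.4, 41.6 and 11.3, and NH138, NH144, NH146 and NH147 had 65.8, 19.7, 11.02 and 6.46. Those groups overlapped almost fully. The difference did not pass in all mice (-1.01, standard error 0.44, adjusted p = 0.133), and it was -0.55 after quantile normalization and -0.29 with an offset added before the log. In the column mice alone, where 12.01% of all probe sets were called, it was -1.62 (adjusted p = 0.0348), and in the Trizol mice alone it was 0.26. The interaction was -1.88 (standard error 0.90), with an unadjusted p of 0.0458 and an adjusted p of 0.660, and so the extraction methods were not shown to differ.

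The Gq-coupled receptor M3 was also read by 1 dim probe set, 1422258_at of Chrm3. In the column mice it ranged from 3.01 to 78.0 with a median of 14.9 in handled mice and from 3.98 to 36.1 with a median of 7.90 in non-handled mice. With Trizol H113, H126, H130 and H131 had 53.5, 124, 9.39 and 8.15, and NH138, NH144, NH146 and NH147 had 5.14, 59.7, 3.598 and 6.33. The groups overlapped under both methods, and a few mice of each group stood several times above the rest. The log2 difference was 0.99 (95% confidence interval -0.16 to 2.14, adjusted p = 0.253), with 1.48 after quantile normalization and 0.40 with an offset, neither of which passed.

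**Figure D2:**
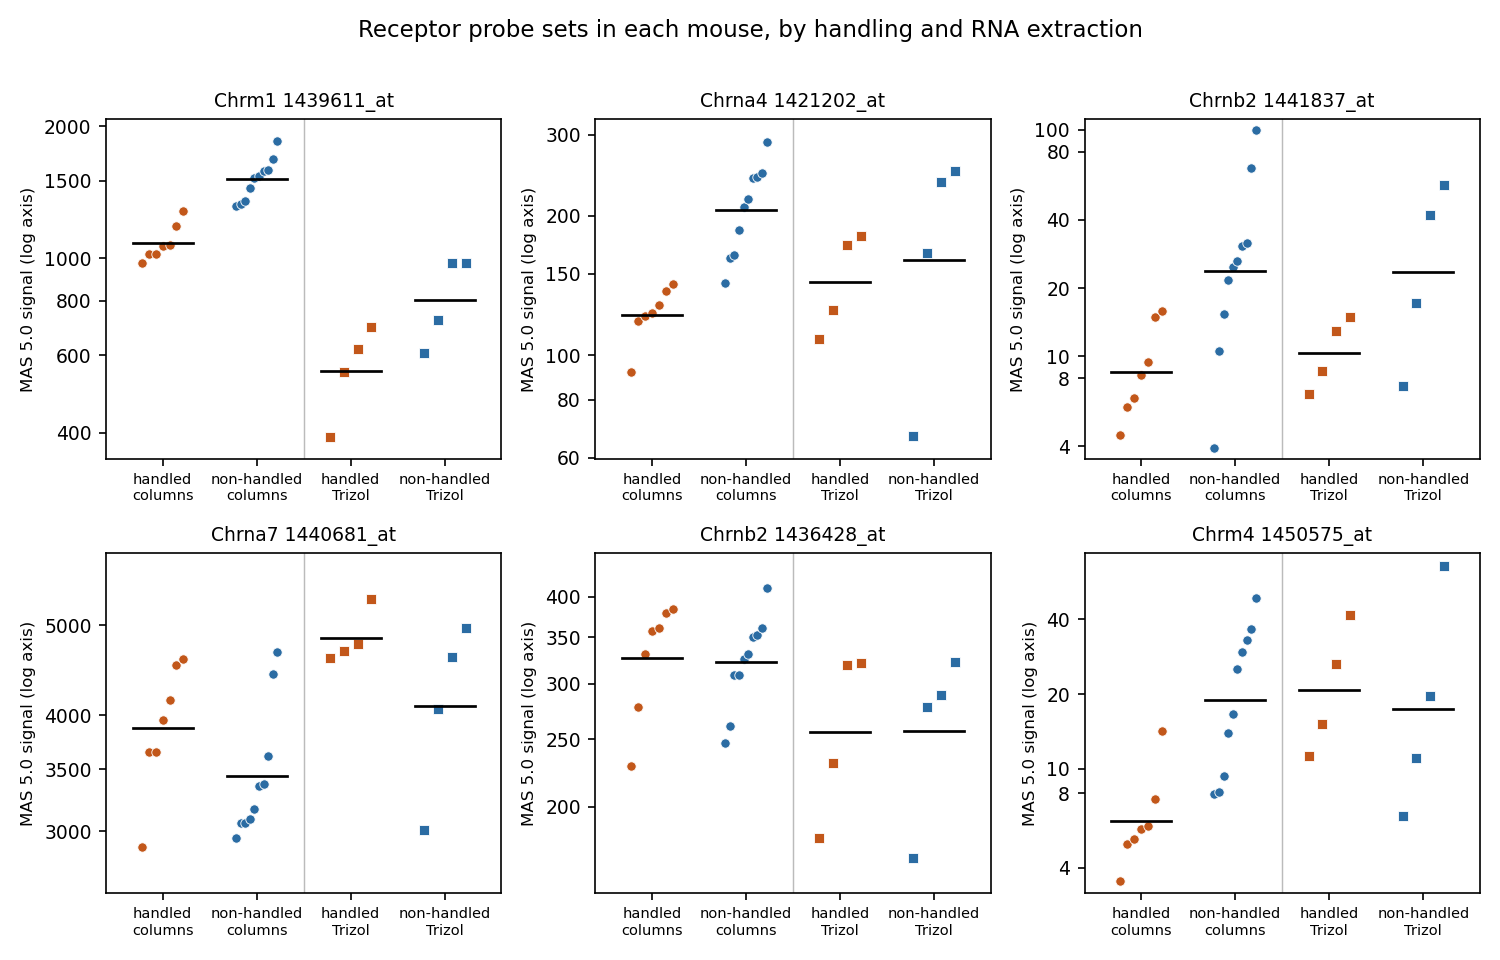
MAS 5.0 signal of each mouse on a log axis for 6 receptor probe sets, by handling and extraction method. Circles are column mice, squares are Trizol mice, and bars are means of log2 signal. For Chrm1 1439611_at and Chrna4 1421202_at the 7 handled column mice lie below the 10 non-handled column mice, and the Trizol mice overlap. The share of all probe sets that separate in this way was not counted.

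Of the 10 nicotinic probe sets, 2 fell in handled mice and 8 did not pass. The alpha4 gene Chrna4 had 1 of these calls in 3 probe sets. The probe set 1421202_at ranged from 91.8 to 142.3 with a median of 123.5 in the handled column mice and from 143 to 289 with a median of 214 in the non-handled column mice. All 7 handled column mice were below all 10 non-handled column mice, with H108 and NH162 nearly level at the boundary. Here too the share of all probe sets that separated so was not counted. With Trizol H113, H126, H130 and H131 had 125, 181, 173 and 108.6, and NH138, NH144, NH146 and NH147 had 166.4, 250.2, 237 and 66.9. The Trizol groups overlapped, with the lowest signal of all in the non-handled mouse NH147. The log2 difference in all mice was -0.56 (standard error 0.19, 95% confidence interval -0.94 to -0.17), a signal 1.47-fold lower, with an adjusted p of 0.0499. It was -0.75 in the column mice alone (adjusted p = 0.00843), and -0.16 in the Trizol mice alone (adjusted p = 0.957). Relative to the median of all probe sets it was -0.41. After quantile normalization it was -0.34 and did not pass, and the call held in 5 of the 25 fits with a mouse left out.

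The other Chrna4 probe sets did not follow. The probe set 1421203_at differed by -0.02 in all mice (95% confidence interval -0.59 to 0.54), with 0.51 in the column mice and -1.12 in the Trizol mice. Its interaction, 1.63 (standard error 0.53), had the smallest p of the 14, 0.00399 unadjusted and 0.475 adjusted. In the column mice all 7 handled mice were above the non-handled median of 91.6, while with Trizol 3 of 4 handled mice were below all 4 non-handled mice. How many of all probe sets had such counts was not determined. The probe set 1456354_at differed by -0.04 (95% confidence interval -0.47 to 0.39). Residual correlations among the 3 Chrna4 probe sets across the 25 mice lay between -0.33 and 0.10.

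The beta2 gene Chrnb2 likewise had 1 called probe set of 3, and it was the dimmest. The probe set 1441837_at ranged from 4.51 to 15.9 with a median of 8.29 in the handled column mice and from 3.96 to 99.2 with a median of 25.5 in the non-handled ones. With Trizol H113, H126, H130 and H131 had 8.60, 14.9, 6.84 and 12.9, and NH138, NH144, NH146 and NH147 had 56.9, 42.2, 7.36 and 17.2. No handled mouse exceeded 15.9, and 10 of the 14 non-handled mice did, a separation whose share over all probe sets was not counted. NH155 had the lowest signal of the 25. The log2 difference was -1.39 (standard error 0.45, 95% confidence interval -2.30 to -0.48, adjusted p = 0.0403). It passed in neither extraction group alone, with -1.48 in the column mice (adjusted p = 0.0863) and -1.19 in the Trizol mice (adjusted p = 0.819). Relative to the median of all probe sets, dim and bright together, it was -1.24. The median rank of the probe set was at percentile 13.8 of an array, and the size of the difference depended on how low signals were treated: after quantile normalization it was -0.91 (adjusted p = 0.205), and with an offset added before the log it was -0.50, a signal 1.41-fold lower instead of 2.62-fold (adjusted p = 0.0352).

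The brightest Chrnb2 probe set, 1436428_at, showed no handling difference that the test could separate from 0. It ranged from 229 to 384 with a median of 358 in the handled column mice and from 247 to 412 with a median of 328 in the non-handled ones. With Trizol H113, H126, H130 and H131 had 231, 321, 181 and 319, and NH138, NH144, NH146 and NH147 had 278, 169, 322 and 289. The groups overlapped throughout. The log2 difference was 0.01, with a 95% confidence interval of -0.25 to 0.27 that does not reach the difference of -1.39 at 1441837_at. The third probe set, 1420744_at, differed by -0.37 (95% confidence interval -0.92 to 0.19, adjusted p = 0.393), and by -0.096 after quantile normalization.

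The alpha7 gene Chrna7 had positive differences at both of its probe sets, and neither passed. The probe set 1440681_at ranged from 2886 to 4597 with a median of 3953 in the handled column mice and from 2954 to 4681 with a median of 3265 in the non-handled ones. With Trizol H113, H126, H130 and H131 had 4610.4, 4697, 5337 and 4777, and NH138, NH144, NH146 and NH147 had 4060.0, 4964, 4625 and 3009. Of the 11 handled mice, 10 were above the median of the non-handled mice, and the groups overlapped under both methods. The log2 difference was 0.20 (standard error 0.090, 95% confidence interval 0.01 to 0.38), with an unadjusted limma p of 0.0352 and an adjusted p of 0.146. Relative to the median of all probe sets it was 0.34 with the deposited scaling, 0.12 after quantile normalization and 0.060 with arrays scaled to the same mean and SD, where the differences themselves were 0.14 and 0.086. The other probe set, 1450299_at, was far dimmer. Its median over the 25 mice was 55.4, with a median rank at percentile 32.4 of an array against 95.4 for 1440681_at. It differed by 0.88 (95% confidence interval 0.02 to 1.73, adjusted p = 0.167). The difference was 0.40 with an offset, 1.21 after quantile normalization (adjusted p = 0.0759) and 1.21 after scaling (adjusted p = 0.0724), and none of these passed. The residual correlation between the pair was 0.45.

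The accessory subunit gene Chrna5 also had positive differences at both probe sets that did not pass. The probe set 1442035_at ranged from 159 to 277 with a median of 203 in the handled column mice and from 95.8 to 238 with a median of 153 in the non-handled ones. With Trizol H113, H126, H130 and H131 had 197, 133, 108.5 and 120.0, and NH138, NH144, NH146 and NH147 had 171, 138.4, 155.6 and 94.9. All 7 handled column mice were above the non-handled median, and with Trizol 1 of 4 was. The log2 difference was 0.32 (95% confidence interval -0.04 to 0.68, adjusted p = 0.243), with 0.50 after quantile normalization (adjusted p = 0.119). The probe set 1427401_at differed by 0.22 (95% confidence interval -0.15 to 0.59, adjusted p = 0.445), with 0.44 after quantile normalization (adjusted p = 0.166).

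Extraction method was compared next, since it was the other factor that set the arrays apart. The column and Trizol mice are separate animals, so the method and any other difference between these groups of mice cannot be told apart. Of the 14 receptor probe sets, 2 were higher with columns, 1 was lower and 11 did not pass. Over all probe sets 39.8% were called, 16.5% higher and 23.3% lower with columns. After quantile normalization 8 of the 14 were called, 7 higher and 1 lower. In that setting 10756 of the 45037 probe sets were called higher and 8091 lower. Chrm1 1439611_at was 1.92-fold higher with columns (log2 difference 0.94, standard error 0.097, adjusted p = 8.05e-10). The column mice ranged from 973 to 1851 and the Trizol mice from 391 to 975, and so the groups met only at NH138 and NH147, the highest of the Trizol mice. The difference was 0.97 in handled mice alone and 0.91 in non-handled mice alone. It was larger than the handling difference of the same probe set, which was not called in a fit without an extraction term (-0.58, adjusted p = 0.0749).

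Chrna7 1440681_at was 1.22-fold lower with columns (log2 difference -0.28, standard error 0.095, adjusted p = 0.0158). It was called in 24 of the 25 fits with a mouse left out and was not called without NH144. Chrnb2 1436428_at was 1.27-fold higher with columns (0.34, adjusted p = 0.0454), and was called in 12 of the 25 fits with a mouse left out. The natural log of the 3′ to 5′ signal ratio of control probe sets is a measure of RNA integrity and amplification. For Gapdh it was 0.893 ± 0.126 (SD, n = 17) in the column mice and 1.19 ± 0.108 (SD, n = 8) in the Trizol mice. For Actb it was nearly equal, 1.280 ± 0.268 in the column mice and 1.283 ± 0.139 in the Trizol mice. With the Gapdh and Actb ratios as covariates the extraction difference of Chrm1 1439611_at was 0.99 (adjusted p = 4.37e-05), that of Chrna7 1440681_at was -0.24 (adjusted p = 0.363) and that of Chrnb2 1436428_at was 0.01 (adjusted p = 0.988). In the same fit the handling difference of Chrm1 1439611_at was -0.53 (adjusted p = 0.00138). The interaction of handling with extraction was called by limma for 0 of the 14 receptor probe sets and for 0.0511% of all probe sets. An unadjusted p under 0.05 was found for 2 of the 14 and for 3365 of the 45037.

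**Figure D3:**
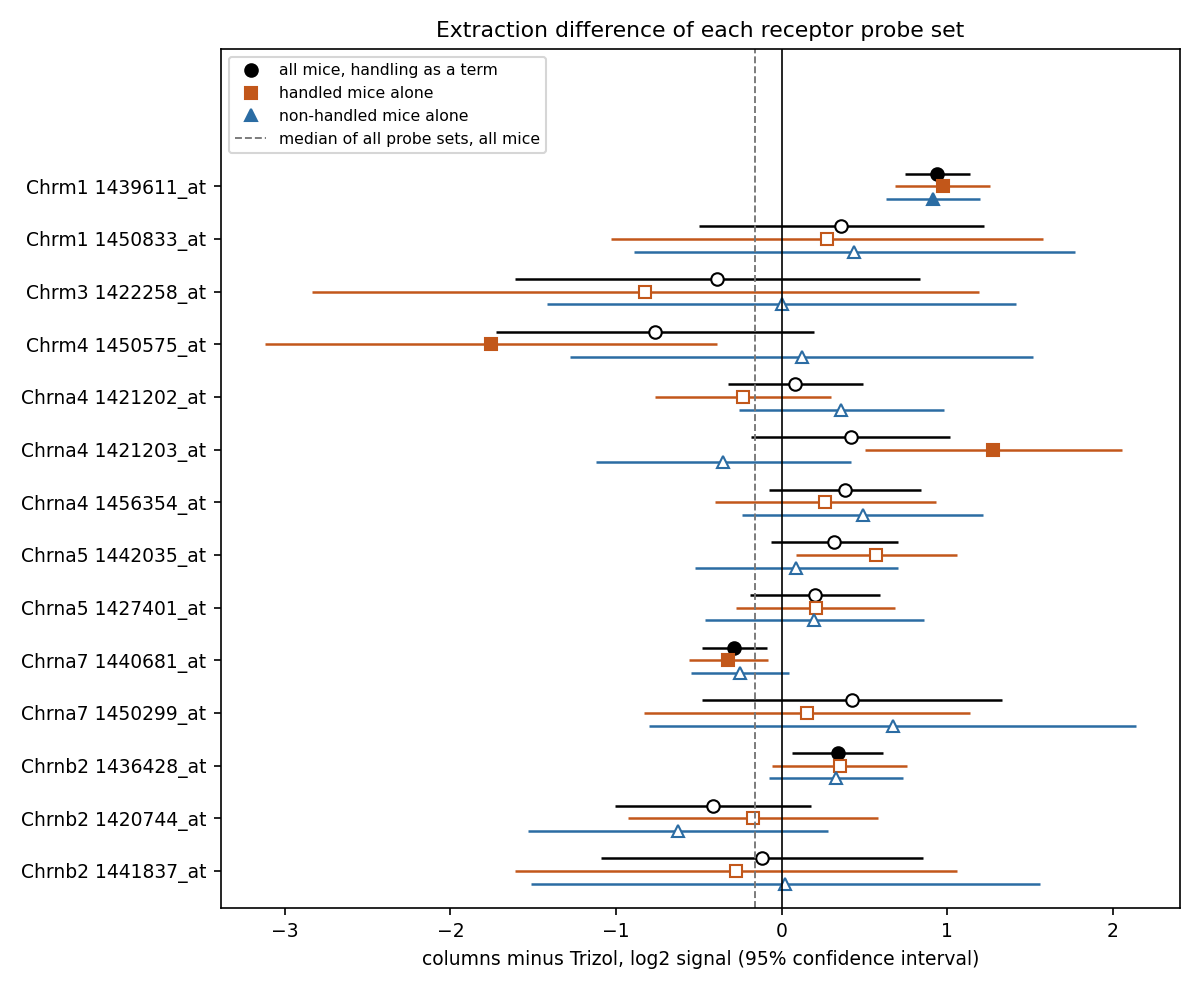
Columns minus Trizol log2 signal for the 14 receptor probe sets, with 95% confidence intervals, in all mice (circles), in the handled mice alone (squares) and in the non-handled mice alone (triangles). Filled symbols have an adjusted p under 0.05 over all probe sets, and the dashed line is the median of all probe sets in all mice. Chrm1 1439611_at lies at 0.94, 0.97 and 0.91.

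The other genes of acetylcholine signalling were taken as a list of 51, of which 46 had a probe set and 1 probe set per gene was used, that of highest mean signal. Handled mice were higher for 1 gene and lower for 8, and 37 did not pass. Over the 18193 genes 14.3% were called, and the list's median difference of -0.12 equalled that of all genes at this precision. After quantile normalization 4 of the 46 were called, namely Chrna6, Lypd1, Prkca and Rgs14, and the other 5 did not pass. In that setting 1319 of all 45037 probe sets were called higher and 1595 lower, counted by probe set and not by gene. Chrm5, the remaining muscarinic receptor, had no probe set.

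In synthesis and transport, Slc5a7, the high-affinity choline transporter of cholinergic terminals, fell in handled mice by 1.68 on the log2 scale (adjusted p = 0.0427), from a mean signal of 38.9 ± 29.3 (SD, n = 14) in non-handled mice to 14.1 ± 15.3 (SD, n = 11) in handled mice. After quantile normalization it did not pass (-1.17, adjusted p = 0.201). The Slc5a7 difference was -1.74 in the column mice and -1.57 in the Trizol mice. The vesicular acetylcholine transporter gene Slc18a3 differed by -1.15 (adjusted p = 0.0741), choline acetyltransferase Chat by -0.31 (adjusted p = 0.559) and acetylcholinesterase Ache by -0.0042 (adjusted p = 0.990). Somata that make acetylcholine lie mostly outside CA1, and the signals of Slc5a7 and Slc18a3 had median ranks at percentiles 17.4 and 31.3 of an array.

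Among other receptor subunits, Chrna6 fell by 1.597 (adjusted p = 0.00555) and Chrnb4 fell by 1.40 (adjusted p = 0.0279, and 0.0986 after quantile normalization), the first with a median rank at percentile 40.5 of an array and the second at 34.1. Chrna6 differed by -1.62 in the column mice and -1.56 in the Trizol mice, and Chrnb4 by -1.26 and -1.69. The other 9 subunits with a probe set did not pass. In transduction, Plcb1, the phospholipase C through which Gq-coupled muscarinic receptors act in hippocampal pyramidal cells, rose by 0.25 (standard error 0.075, adjusted p = 0.0258), with 0.25 in the column mice and 0.26 in the Trizol mice, and after quantile normalization it was 0.23 and did not pass (adjusted p = 0.0610). The protein kinase C gene Prkca fell by 0.23 (adjusted p = 0.0393), with -0.33 in the column mice and -0.03 in the Trizol mice. The regulator of G protein signalling Rgs14, a marker of CA2, fell by 0.29 (adjusted p = 0.0299), with -0.38 and -0.11 in these groups. The interaction of handling with extraction was called by limma for neither (adjusted p = 0.672 and 0.786). Of the Gq and Go subunits, Gnaq differed by 0.03, Gna11 by 0.01 and Gnao1 by 0.26, and none of these passed.

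Of genes for receptor assembly and modulation, Lypd1, a relative of Lynx1 that binds nicotinic receptors, fell by 0.29 (adjusted p = 0.0291). Rapsn, which clusters the receptors of muscle, fell by 1.504 (adjusted p = 0.0468, and 0.188 after quantile normalization). Rapsn had a low signal, with a median rank at percentile 14.0. Lypd1 differed by -0.37 in the column mice and -0.11 in the Trizol mice, and Rapsn by -1.45 and -1.61. Of the channels downstream, Kcnj6, a subunit of the potassium channels that Gi and Go open, fell by 0.58 (adjusted p = 0.0443). Its difference was -0.37 after quantile normalization, which did not pass (adjusted p = 0.206). It was -0.78 in the column mice and -0.16 in the Trizol mice. By extraction method 22 of the 46 genes were called, 15 higher and 7 lower with columns, beside 41.4% of all genes.

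**Figure D4:**
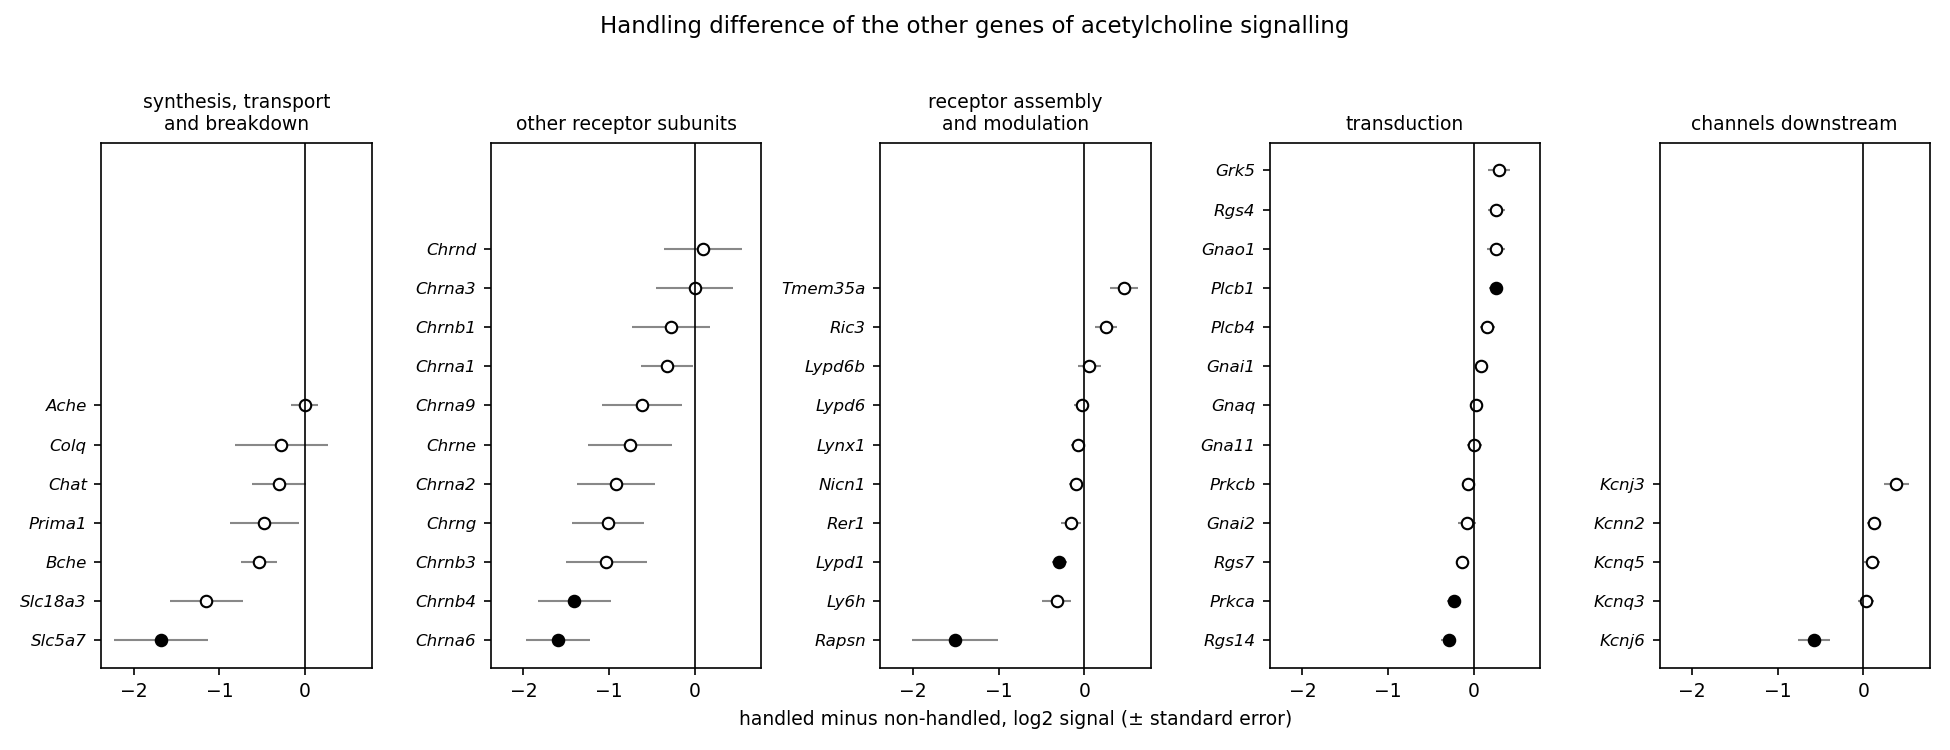
Handled minus non-handled log2 signal of the 46 other genes of acetylcholine signalling in 5 groups, with standard errors; filled circles have an adjusted p under 0.05 over all probe sets. Plcb1 (0.25) is the 1 filled circle above 0, and Chrna6 (-1.597) and Slc5a7 (-1.68) lie furthest below it.

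Markers of CA1 pyramidal cells were bright, with 9 of 10 on the array, the median ranks of those 9 between percentiles 65.7 and 99.2 and summed signals of 41816 to 70306 in handled and 40399 to 70019.7 in non-handled mice. Of these 9, Camk2a was called for handling, lower by 0.24. Over the 18193 genes 14.3% were called for handling, and no count of called markers was tested against that share. Of the 10 interneuron markers Gad1 and Gad2 were higher in handled mice by 0.30 and 0.86, Pvalb was lower by 0.32 and 7 did not pass, with sums of 23099 to 32315 and 19237 to 33614. Of the 5 choroid plexus markers Folr1 and Clic6 were lower by 0.86 and 0.63, with sums of 437 to 582 in handled and 549 to 3325 in non-handled mice. The highest sum was that of NH147, where Ttr alone had 2805, and the next was 1011; without Ttr the sums were 388 to 516 and 452 to 875. Without NH147 the handling differences of Chrm1 1439611_at, Chrna4 1421202_at and Chrnb2 1441837_at were -0.47, -0.70 and -1.44, each still called. Of the other 10 marker lists, for CA3, CA2, dentate granule cells, cholinergic neurons, thalamus and habenula, astrocytes, oligodendrocytes and their precursors, microglia and vessels, 3 held no called gene and 7 held 1 each. Handled mice were higher for Aqp4 (0.32), Pdgfra (0.30), P2ry12 (0.24) and Rora (0.30) and lower for Cldn5 (-0.49, adjusted p = 0.00549), beside Rgs14 and Slc5a7 given above. After quantile normalization Camk2a, Gad2, Pvalb, Cldn5 and Rgs14 were still called, and Gad1, Folr1, Clic6, Aqp4, Pdgfra, P2ry12, Rora and Slc5a7 did not pass. The part of these cell types in the receptor differences was not tested.

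For the brightest probe set of each receptor gene, the 2 genes with the most similar residuals across the 25 mice were listed out of 18193, as a description without a test. They were Zbtb22 and Rogdi for Chrm1 (Pearson r of 0.80 for both), Togaram1 and Uba6 for Chrna7 (0.81 and 0.80), Ppp2r3c and Ceacam18 for Chrna4 (0.81 and 0.77), and Tasp1 and Cbll1 for Chrna5 (0.84 and 0.75). For Chrnb2 they were Prl7a1 and Ube2h (0.78 and 0.74), for Chrm3 Gm12446 and Gpbp1l1 (0.77 and 0.73), and for Chrm4 Trpt1 and Ppp2r2d (0.77 and 0.74). The values share the arrays and their depth of signal, and the highest of 18193 correlations is large by selection.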

How the data were processed

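CA1 RNA of 25 mice was hybridized to Affymetrix mouse arrays, 1 for each animal. The authors deposited intensity values, the linear MAS 5.0 signal from Affymetrix Expression Console, with 1 scale factor per array and no normalization of distributions, so differences in the spread of signal between arrays remain. No columns were left out. Precision depends on the number of mice. Extraction was read from the label text, which names positions in the sample list, and group sizes matched the design text.

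Of the 45101 probe sets, 34958 carry 1 gene in the platform annotation, 932 carry several and 9211 carry none, and 34754 symbols were updated through the gene identifier. The 64 control probe sets were left out. Log2 signal was tested two-sided with limma 3.58.1 (R 4.3.3), with terms for handling and for extraction and a prior that follows mean signal, with Benjamini-Hochberg adjustment over 45037 probe sets, after a test on simulated data. Alternatives were other scalings, an offset, a prior without trend, array weights, a filter on dim signal, RNA quality covariates, fits within groups and leaving out each mouse. Tables used Python 3.11.15, pandas 2.3.3 and matplotlib 3.10.9.

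All 14 receptor probe sets were reported. For the brightest of each gene and those called, the signal of every mouse was given in groups of 4, and the lowest, median and highest in larger groups. From the cholinergic list, the called genes were named, up to 8 by p, with Chat, Ache, Slc18a3, Slc5a7 and Chrm5, and further genes were chosen after their values were seen. The receptors, lists and tests were chosen with earlier results of these data known.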

Additional observations from a re-analysis of the deposited data

Results flagged for a closer look

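In groups of 4 to 10 mice, 4 of 56 combinations of receptor probe set and group held a mouse far from the others by Dixon's test, and chance gives about 1 in 20. In the handled column mice H109 was lowest for Chrna4 1421202_at, at 91.8 with the next mouse at 119. In the non-handled column mice NH162 was lowest for Chrnb2 1420744_at, at 21.8 with the next at 61.9. In the non-handled Trizol mice NH147 was highest for Chrna4 1456354_at, at 109.2 with the next at 73.3, and NH138 was highest for Chrna5 1427401_at, at 160.1 with the next at 114. Without H109 the handling difference of Chrna4 1421202_at was -0.50 (adjusted p = 0.100 by limma), and without NH162 that of Chrnb2 1420744_at was -0.53.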

How the results depend on the processing

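The handling difference of Chrm1 1439611_at kept its direction and its call under every scaling, offset, prior, weighting, filter and covariate alternative; it did not pass without an extraction term (-0.58) or in the Trizol mice alone (-0.54), where 0 probe sets were called. Receptor probe sets called for handling numbered 3, and 1 after quantile normalization, with arrays scaled alike or with RNA quality covariates. They numbered 0 without an extraction term or in the Trizol mice alone, and 1 to 3 when a mouse was left out. Over all 45037 probe sets the calls were 1614 higher and 3571 lower in the fit described above, and 1319 and 1595 after quantile normalization. They were 1726 and 1850 after scaling, 1324 and 2621 with covariates, and 459 and 1842 without an extraction term. Chrna4 1421202_at did not pass after quantile normalization (-0.34) or scaling (-0.34), with no trend in the prior (-0.56), with covariates (-0.45), without an extraction term (-0.56) or with Trizol alone (-0.16), and ranged from -0.70 to -0.50 with a mouse left out. Its call held without NH142, NH162, NH147, H126 or H130 and was lost without any of the other 20. Chrnb2 1441837_at did not pass after quantile normalization (-0.91) or scaling (-0.94), with covariates (-1.31), without an extraction term (-1.38), with columns alone (-1.48) or with Trizol alone (-1.19), and ranged from -1.58 to -1.23 with a mouse left out. Its call held without H118, H123, H126, H131, NH142, NH146, NH147, NH155 or NH157 and was lost without any of the other 16. Other cholinergic genes called for handling numbered 9, against 4 after quantile normalization or with covariates, 3 with no trend and 5 in the brighter 50%. They numbered 1 without an extraction term, 0 with Trizol alone and 3 to 12 with a mouse left out (3 without H117 or H118). Over all probe sets the handling calls were 1002 higher and 3230 lower with no trend, and 1871 and 2443 of 22518 in the brighter 50%. Receptor probe sets called for extraction numbered 3, against 8 after quantile normalization, 7 after scaling, 1 with covariates and 1 in non-handled mice alone. In handled mice alone 2 were called higher and 2 lower with columns. The extraction calls numbered 1 to 3 with a mouse left out (1 without NH144). Over all 45037 probe sets the extraction calls were 10756 higher and 8091 lower after quantile normalization, and 10758 and 7879 after scaling. They were 4720 and 6568 with covariates, 5097 and 7118 in non-handled mice alone, 6400 and 8762 in handled mice alone, and 7430 and 10500 in the fit described above.

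Among probe sets not called, signs turned as follows. For handling, Chrna4 1421203_at was 0.21 after quantile normalization, 0.19 after scaling, 0.0090 with an offset, 0.11 with array weights, 0.078 with covariates, 0.51 with columns alone and -0.11 to 0.15 with a mouse left out. Chrna4 1456354_at was 0.24 after quantile normalization, 0.22 after scaling, 0.11 with Trizol alone and -0.10 to 0.030 with a mouse left out. Chrnb2 1436428_at was -0.017 without an extraction term, -0.0077 with Trizol alone and -0.050 to 0.064 with a mouse left out. Chrm1 1450833_at was -0.0061 with an offset and -0.064 to 0.19 with a mouse left out, Chrm4 1450575_at was 0.26 and Chrna5 1442035_at was -0.0089 with Trizol alone. For extraction, Chrnb2 1441837_at was 0.34 after quantile normalization, 0.42 after scaling, 0.27 with covariates, 0.023 in non-handled mice and -0.40 to 0.069 with a mouse left out. Chrm3 1422258_at was 0.0027 after quantile normalization, 0.13 after scaling and 0.00060 in non-handled mice, and Chrnb2 1420744_at was 0.056 after quantile normalization. Chrna4 1421202_at was -0.28 with covariates, -0.23 in handled mice and -0.15 to 0.16 with a mouse left out, and Chrna5 1442035_at was -0.16 with covariates. In non-handled mice alone Chrm4 1450575_at was 0.12 and Chrna4 1421203_at was -0.35. No paired analysis was possible because the groups compared share no replicate numbers. The causes were not tested, and dim probe sets limit precision.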
